A study of Mus musculus with 20 samples.

Results

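Wells with astrocyte markers were picked out among single cells of the mouse habenula at postnatal day 4 (P4), postnatal day 7 (P7) and adulthood. A well was selected on 6 transcripts, Aqp4, Mlc1, Aldh1l1, Ednrb, Fabp7 and Tnc, and was chosen by holding at least 1 count of at least 3 of them. Of 1627 kept wells on 6 plates, 101 met this rule: the P4 plates gave 11 and 13, the P7 plates 11 and 9, and the adult plates 5 and 52. Astrocyte genes led in most of these wells but not in all of them. All 101 are therefore called marker-positive wells below. Of them 72, in which the summed counts of 25 further astrocyte genes exceeded those of every other cell type list, are called astrocyte-led wells. The other lists held 10 to 12 genes each and sums were not scaled by list length, which favours the longer astrocyte list. The astrocyte-led wells were defined after the data had been seen, so calls of those 25 genes within them are a description, also where another list holds the gene.

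Astrocytes are glial cells that clear glutamate and potassium around synapses, exchange metabolites with neurons and line blood vessels with water channels on their endfeet. Young astrocytes descend from radial glia, still carry radial glial transcripts such as Vim and Fabp7 in the first postnatal week, and then gain transporters, gap junction proteins and metabolic enzymes. In the habenula, a paired epithalamic nucleus made mostly of excitatory neurons, they are a minority among neurons, oligodendrocyte lineage cells and ependymal cells of the adjoining ventricle.

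All 6 plates came from habenula of Brn3a-tauLacZ mice, a reporter line for the locus of Pou4f1 (Brn3a), a transcription factor of habenular neurons. P4, P7 and the adult were each represented by 2 plates of 384 wells, with 1 cell intended per well. No source used here gives the reporter genotype, the age of the adults, the sex or number of the mice, or a sorting gate. The plate was the replicate throughout, and since nothing says that the plates of a stage came from separate mice, p-values measure only the spread between these plates, which may be technical.

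Kept wells had 1000 or more counts, with spike-in and mitochondrial rows set aside, 500 or more detected genes and a mitochondrial share of 20% or less. Between 287 and 342 wells were kept on 5 plates, and 56 on adult plate 1. The marker-positive wells of a plate summed to between 79579 and 596190 counts, so a gene absent from a plate's sum could still have stood at up to 5.03 to 37.7 CPM (counts per 1000000, with 3 counts of the plate's sum as the floor). Median depth per marker-positive well was 9163 to 14079 counts at P4 and P7, against 17058 to 22393 in the other kept wells. On adult plate 1 the order was the other way, 11843 against 4360 counts, and on adult plate 2 it was 7151 against 11536. The median mitochondrial share of the marker-positive wells was 13.7% on adult plate 1 and 6.06% to 8.95% elsewhere. The unspliced share of their UMIs was 18.6% to 21.9% on the early plates, 35.8% on adult plate 1 and 25.8% on adult plate 2, against 22.3% to 25.2% in the other wells of the 6 plates, and its part in the stage differences was not tested beyond the fit on spliced counts alone. Xist stood at 693, 67.5, 415 and 62.8 CPM on the P4 and P7 plates and at 0 on both adult plates, and the part of sex in the results was not tested.

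The astrocyte list led in most marker-positive wells of each plate, with the lowest shares on P7 plate 2 and adult plate 2. It led in 10 of 11 and 12 of 13 wells on the P4 plates, in 10 of 11 and 6 of 9 on the P7 plates, in 4 of 5 on adult plate 1 and in 30 of 52 on adult plate 2. The other 22 wells of adult plate 2 were led by neuron markers (12 wells), by markers of oligodendrocyte precursor cells, OPCs (8 wells), by oligodendrocyte markers (1 well) and by mural or fibroblast markers (1 well). The 12 neuron-led wells were deep, with a median of 25866 counts against 4905 in the 30 astrocyte-led wells, and supplied 52.1% of the counts in the sum of adult plate 2, against 29.9% from the astrocyte-led wells. The stage results below are given for all marker-positive wells, with the astrocyte-led wells beside the main counts, lists and genes.

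**Figure D1:**
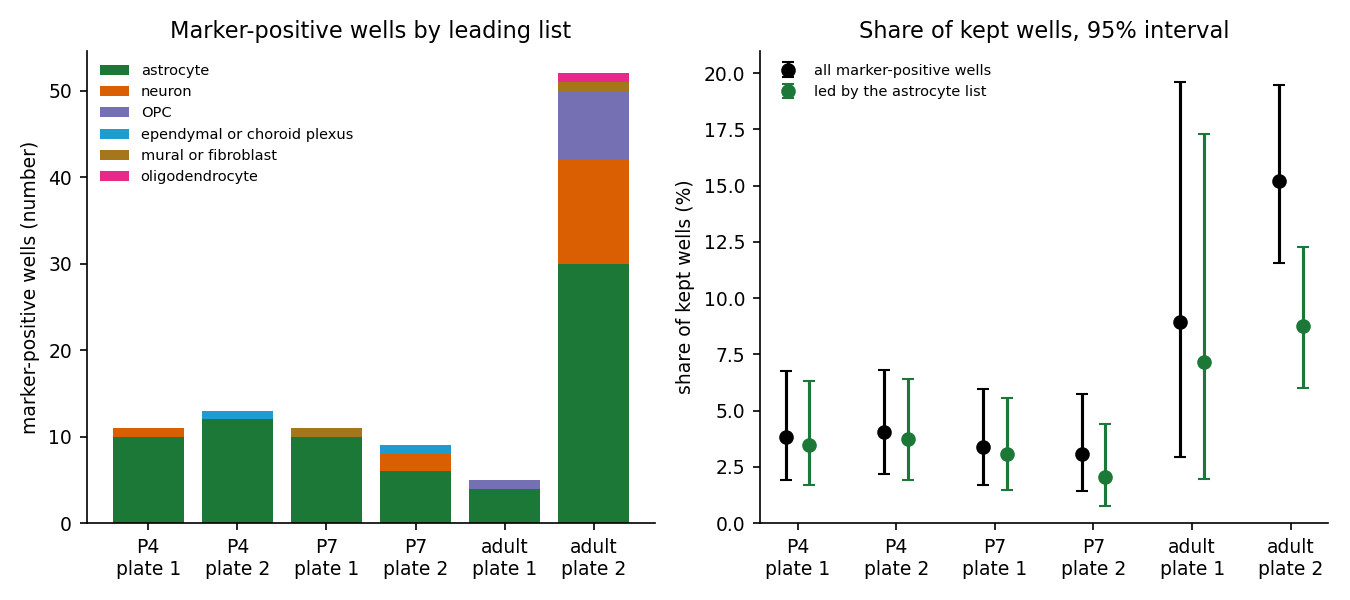
Left, number of marker-positive wells on each plate, stacked by the cell type list with the highest summed counts. Right, share of kept wells (%) that were marker-positive (black) or astrocyte-led (green), with exact 95% binomial intervals; the share of marker-positive wells was 3.83% and 4.04% at P4 and 15.2% on adult plate 2.

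Different rule markers brought in these kinds of well, and since each well had to hold 3 of the 6, the frequencies are partly fixed by the rule and are a description. In the adult, Mlc1, a membrane protein of astrocyte endfeet, had a count in 30 of 34 astrocyte-led wells and Aqp4, the endfoot water channel, in 27 of 34, whereas each had one in 3 of the 12 neuron-led wells. Fabp7, a fatty acid binding protein of radial glia, had a count in all 12 neuron-led wells and Tnc, a matrix glycoprotein, in 11 of 12, whereas Tnc had one in 6 of the 34 astrocyte-led wells. Of the 9 adult wells led by OPC markers, 9 held Fabp7, 8 held Ednrb, the endothelin receptor B, and 7 held Tnc. Fabp7 was also held by 25 and Ednrb by 22 of the 34 astrocyte-led wells. Ednrb was held by 8 of the 12 neuron-led wells. Among wells outside the selection, Fabp7 had a count in 6.67% to 10.0% on the P4 and P7 plates, in 5.88% on adult plate 1 and in 36.6% on adult plate 2, and Aqp4 in 0.952% to 2.11%, 23.5% and 6.21%.

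Per well, the 25 astrocyte genes that the rule did not use, which also set the leading list, had their highest single-well sums in the adult. Their sum had a median over wells of 10575, 7417, 11456 and 8971 CPM on the P4 and P7 plates, 37051 CPM on adult plate 1 and 8616 CPM on adult plate 2, against 357 to 565 CPM in the other wells at P4 and P7 and 2801 and 1328 CPM in those of the adult plates. In the adult, 27 of the 34 astrocyte-led wells lay between 22144 and 71647 CPM with fewer than 3 of 10 ependymal and choroid plexus genes. The other 7 astrocyte-led adult wells held at least 3 of the ependymal genes, which summed to between 832 and 7175 CPM in them, and 6 of the 7 had astrocyte sums below 12000 CPM. All 7 were on adult plate 2 and had 5561 to 12217 counts each, against a median of 4905 in its 30 astrocyte-led wells. They thus weigh more in that plate's astrocyte-led sum than their number. No fit of the astrocyte-led wells left them out. Ependymal cells line the ventricle beside the habenula, and Foxj1, the regulator of motile cilia, stood at 327 CPM in the astrocyte-led wells of adult plate 2 and at 0 in those of adult plate 1. At P4 the astrocyte-led wells with fewer than 3 ependymal genes lay between 2087 and 25270 CPM and at P7 between 5377 and 43034 CPM, so the early wells spread from the lowest values to the adult range. All 4 astrocyte-led wells of adult plate 1 detected 24 of the 25 astrocyte genes, and all 4 also held counts of 7 to 9 of the 12 oligodendrocyte markers. The other wells of that plate summed to 12748 CPM of those markers, and the part of shared RNA or of doublets in this was not tested.

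**Figure D2:**
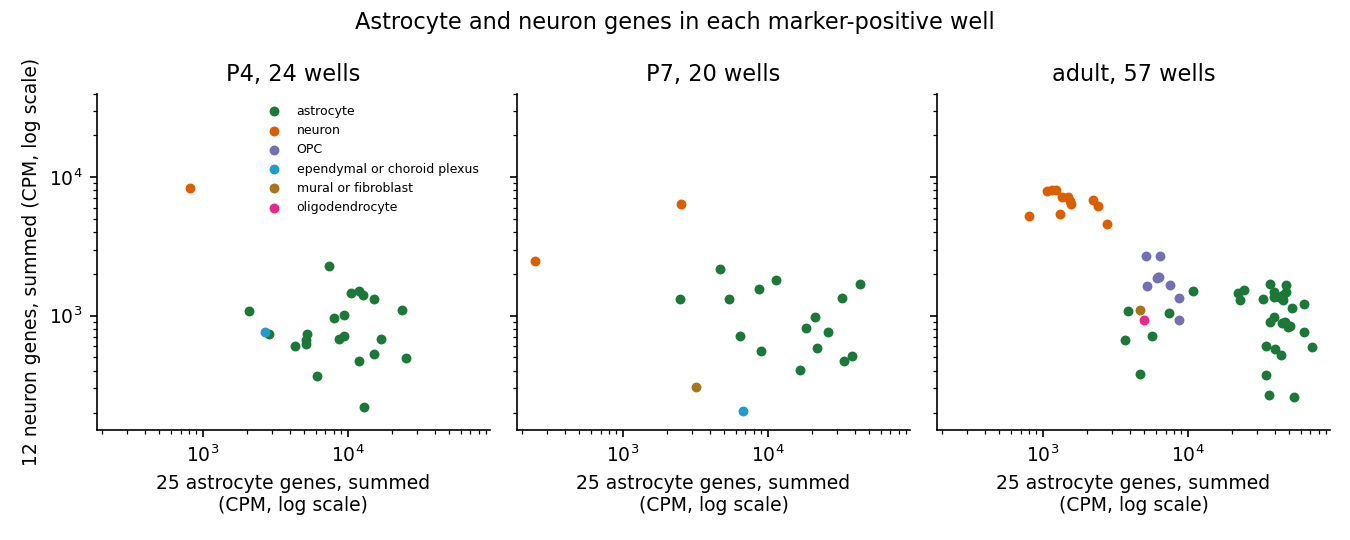
Summed CPM of the 25 astrocyte genes (x, log scale) and of the 12 neuron genes (y, log scale) in each marker-positive well, by stage, coloured by the leading list. In the adult the neuron-led wells lie at the upper left, the OPC-led wells overlap on the x axis with 6 astrocyte-led wells below 12000 CPM, all 6 with at least 3 ependymal genes, and at the right lie the 27 astrocyte-led wells with fewer than 3 ependymal genes, from 22144 CPM up on the x axis, with 1 astrocyte-led well that held 3 or more at 22956 CPM.

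Around the threshold of 3 markers, early and adult wells differed. At P4 the 21 wells with 2 markers held 896 CPM of the 25 astrocyte genes and 6940 CPM of the neuron genes, the 3 wells with 3 markers held 2326 and 4082 CPM, and the 10 wells with all 6 markers held 13096 and 858 CPM. At P7 the 18 wells with 2 markers held 844 CPM of astrocyte genes, the 5 wells with 3 markers 4270 CPM and the 5 wells with all 6 markers 23938 CPM. In the adult no well held all 6 markers, 66 wells held 2 of them with 3405 CPM of astrocyte genes, the 31 wells with 3 held 9217 CPM, the 20 wells with 4 held 13815 CPM, and the 6 wells with 5, all astrocyte-led, held 41960 CPM. The rule left out 14 astrocyte-led wells in the adult, 7 with 2 markers, 3 with 1 and 4 with 0, against 3 at P4 and 1 at P7. They are counted with the other wells, where the 14 supplied 12.0% of the adult counts of the 25 astrocyte genes.

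Cell cycle transcripts were highest in 2 wells. In the well with the most cell cycle transcripts, on P4 plate 1, all 15 cell cycle genes of the list were detected, at 5945 CPM in sum, with 9 of the 25 astrocyte genes. The next was a well of P7 plate 1 with 14 of the 15 genes, and it was led by mural and fibroblast markers at 27403 CPM, collagens among them. In all, 20 of the 101 wells detected at least 5 of the 15 genes, 16 of them on adult plate 2, with 8 led by the astrocyte list, 6 by neuron and 4 by OPC markers. Adult plate 2 held 52 of the 101 wells. Among the other wells, 16 of 290 on adult plate 2 detected at least 5, against 1 to 3 on each early plate and 0 on adult plate 1. At least 10 of the 15 were detected in 5 marker-positive wells, of which 2 were neuron-led wells with sums of only 365 and 896 CPM.

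The genes with the largest ratios of marker-positive to other wells were ranked by the smallest ratio among the 6 plates, as a description of the selection without a test. Aqp4 ranked first: it stood at 711, 988, 787 and 1144 CPM in the marker-positive wells of the P4 and P7 plates and at 1233 and 265 CPM in those of the adult plates, against 0.394 to 1.07 CPM in the other wells at P4 and P7 and 29.8 and 5.19 CPM in the adult. Its smallest log2 ratio was 5.33. Behind it came Gja1, the astrocyte gap junction protein connexin 43 (5.03), Slc6a11, a GABA transporter (4.87), Slc4a4, a sodium bicarbonate cotransporter (4.41), Acsbg1, an acyl-CoA synthetase (4.23), and Ntsr2, a neurotensin receptor (4.19). The 20 genes also held Slc1a2 and Slc1a3, the glutamate transporters GLT-1 and GLAST, the intermediate filament Gfap, the Notch modifier Lfng, the BMP receptor Bmpr1b, the EGF receptor Egfr and the forkhead gene Foxb1. Foxb1 was low but nearly absent elsewhere, at 12.6 to 159 CPM in the marker-positive wells of the 6 plates.

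The share of marker-positive wells was higher on the adult plates than on the early plates. On the 2 plates of each stage the shares were 3.83% and 4.04% (P4), 3.37% and 3.06% (P7) and 8.93% and 15.2% (adult), with exact (Clopper-Pearson) 95% intervals of 1.93% to 6.75%, 2.17% to 6.80%, 1.70% to 5.96%, 1.41% to 5.73%, 2.96% to 19.6% and 11.6% to 19.5%. These intervals cover counting error only. Astrocyte-led wells made up 3.48%, 3.73%, 3.07% and 2.04% of kept wells on the P4 and P7 plates and 7.14% and 8.77% on the adult plates. After each well was thinned to 2000 counts, which left out 2 to 19 shallower wells per plate, the share of wells meeting the rule was 3.24%, 3.22%, 2.78% and 1.42% at P4 and P7 and 5.41% and 4.64% in the adult. The thinned shares rest on 9 of 278, 10 of 311, 9 of 324 and 4 of 281 wells at P4 and P7 and on 2 of 37 and 15 of 323 wells in the adult, where the exact intervals of 0.661% to 18.2% and 2.62% to 7.54% overlap those of the early plates. By each of the 3 measures the point values of the adult plates lay above those of the early plates. With 2 plates a stage no test was made, and the part of cell yield or of a sort in these shares was not tested.

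Between P4 and P7 the marker-positive wells did not differ in any gene that passed the test. Counts were summed per plate, and of 4859 genes that entered edgeR's quasi-likelihood fit 0 passed an adjusted p of 0.05 (0% called), 198 had an unadjusted p below 0.05, and DESeq2 called 1 gene, Pltp. Pltp, a phospholipid transfer protein, stood at 23.5 and 18.4 CPM at P4 and at 474 and 226 CPM at P7, a log2 difference of 4.06 ± 0.73 (SE, n = 2 plates per stage) with an adjusted p of 0.331 by edgeR and 0.0355 by DESeq2. Its astrocyte-led values were 28.4 and 12.7 CPM at P4 and 332 and 41.1 CPM at P7. Gpc5 and Col1a2 had the next lowest p values; Col1a2 stood at 794 CPM on P7 plate 1 and at 69.9 CPM in the astrocyte-led wells of that plate. The count rested on the plates: leaving out P4 plate 1 or 2 gave 10 or 12 genes, leaving out P7 plate 1 or 2 gave 4 or 33, and leaving out adult plate 1 or 2, which share the estimate of spread, gave 22 or 31. These counts also rest on the filter, which was set anew in each such fit, with 1 plate left for a stage. In those fits 5976 to 6859 genes were tested, against 4859. The 25 astrocyte genes had a median log2 difference of 0.83 from P4 to P7, against 0.00 over all genes tested, with none called. Among astrocyte-led wells 0 of 4104 genes passed edgeR's test and 276 had an unadjusted p below 0.05.

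From the early plates to the adult, 304 of 4859 genes changed (6.26% called), 208 of them higher in the adult (4.28%) and 96 lower (1.98%), by edgeR's quasi-likelihood test at an adjusted p of 0.05. The contrast set the 2 adult plates against the mean of P4 and P7. A gene entered the fit with at least 66.6 CPM on at least 2 plates, whichever these were, so a gene could enter through the stage where it was high. Of the 208 higher genes 121 did not reach this on 2 early plates, and of the 96 lower genes 78 did not reach it on both adult plates. In the astrocyte-led wells 244 of 4104 genes were higher (5.95%) and 123 lower (3%), among them 18 of the 25 genes that chose those wells and 3 rule markers, without which 226 and 120 of 4073 were called. The 2 sets of calls shared 162 genes, 53.3% of the first and 44.1% of the second, and of the 228 called genes that could be tested in both, 222 had the same sign, the second set being a subset of the same wells. Without the rule markers and the 25 genes, 148 were shared, 51.2% and 42.8% of the 2 sets. The count was 541 without P7 plate 2, 490 without adult plate 2, and 53 when the adult was set against P7 alone, where 22 were higher and 31 lower, so the predominance of rises was not found against P7. The fits with a plate left out tested more genes, as given above for P4 to P7. The 304 include 3 rule markers, all lower, without which 93 genes were lower. An alternative that dropped every well with 3 or more markers of another nonneuronal type left no well on adult plate 1.

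Of 13 tested genes listed for immature glia 5 fell and none rose, and of 18 tested genes listed for the Notch, Fgf, Shh and Bmp pathways 4 fell and 2 rose, against 1.98% lower and 4.28% higher over all genes. The filter was not passed on both adult plates by 8 of the 13 and 9 of the 18 tested genes. Among them were 2 of the 5 and 2 of the 4 that fell, and 1 of the 2 that rose did not pass it on 2 early plates. These counts are thus partly fixed by the filter and are a description. Ptn, a secreted heparin-binding growth factor made by radial glia (chromosome 6, 36714929 to 36810220, GRCm38), stood at 9391, 9537, 7154 and 5981 CPM on the P4 and P7 plates and at 576 and 337 CPM on the adult plates. All early plates lay above both adult plates, and the log2 difference was -3.98 ± 0.47 (SE, n = 4 and 2 plates) with an edgeR adjusted p of 0.000497. Among astrocyte-led wells it was -4.23, with 479 and 422 CPM on the adult plates. Hes1, a transcriptional repressor downstream of Notch, stood at 1110, 841, 1042 and 478 CPM and then at 11.5 and 99.0 CPM. Its log2 difference was -3.53 (edgeR adjusted p = 0.00626) and -2.49 in the astrocyte-led wells.

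Id1, Id3 and Id4, inhibitors of basic helix-loop-helix factors that BMP signalling induces, also fell. Id4 stood at 940, 1037, 1282 and 917 CPM on the early plates and at 92.2 and 134 CPM on the adult plates, and Id1 at 358, 454, 423 and 239 CPM and then at 11.5 and 38.6 CPM. Their log2 differences were -3.01 and -3.42 (edgeR adjusted p = 0.00375 and 0.0052), and -2.28 and -2.27 in the astrocyte-led wells. Id3 fell by 2.46 on the log2 scale, a call lost against P7 alone, whereas Id2 did not pass the test (-0.64, edgeR adjusted p = 0.562). Of the 28 genes listed for the Notch, Fgf, Shh and Bmp pathways, 18 were tested: Hes1, Id1, Id3 and Id4 fell, Fgfr3 and Spry4 rose, and 12 did not pass. Of the 4 that fell, Hes1 and Id1 did not pass the filter on both adult plates. Spry4 did not pass it on 2 early plates and entered the fit through the adult plates, where it was high. The call of Spry4 was lost without adult plate 2 and against P7 or P4 alone, and that of Fgfr3 against P7 alone. The list's median log2 difference was -0.72, against 0.03 over all genes tested.

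Of the 16 genes listed for immature glia, 13 were tested, 5 fell (Vim, Hes1, Dbi, Ptn and Marcks) and none rose, with a median of -1.54. Of the 5, Vim and Hes1 did not pass the filter on both adult plates. Vim, the radial glial intermediate filament, stood at 1844, 2007, 2725 and 1282 CPM and then at 34.6 and 362 CPM, and the adult plates lay further apart on the log scale than any of the early plates. Its log2 difference was -3.04 (edgeR adjusted p = 0.0173) and -2.22 in the astrocyte-led wells. Dbi did not pass in the astrocyte-led wells (edgeR adjusted p = 0.0540) and lost its call in 10 of 20 alternatives, each P4 and P7 plate left out among them, and Marcks lost its call without P4 plate 2. With the adult set against P7 alone, Ptn and Hes1 kept their calls and Vim, Dbi and Marcks did not. Among astrocyte-led wells 5 of 12 tested genes of the list fell, Vim, Sox11, Hes1, Ptn and Marcks. Among the rule markers, given without a test because they chose the wells, Fabp7 stood at 2614, 3320, 1654 and 3858 CPM and then at 426 and 297 CPM, and Ednrb at 1139, 1362, 998 and 1307 CPM and then at 173 and 141 CPM. Aqp4, given above, overlapped between stages.

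Several genes present on every early plate had no count on either adult plate. Veph1, a pleckstrin homology domain protein, stood at 253, 319, 117 and 163 CPM on the early plates and was at least 10.7-fold lower in the adult, comparing the mean of the early plates with the mean of the 2 adult floors (3 counts of each plate's sum, 34.6 and 5.03 CPM). Of its early counts 9 of 43, 9 of 52, 4 of 16 and 8 of 13 were spliced, and with spliced counts alone Veph1 was not tested. Scube2, a secreted protein that helps release Hedgehog, stood at 101 to 182 CPM and was at least 7.19-fold lower. Col2a1, a fibrillar collagen, stood at 21.9 to 323 CPM and was at least 9.34-fold lower, although its lowest early plate lay under the floor of adult plate 1. Nid1, a basement membrane protein, was at least 10.9-fold lower, Draxin, an axon guidance protein, at least 5.19-fold, and Capn6 at least 3.48-fold. Nid1 with 4 counts on P4 plate 1 and Capn6 with 1 count on P7 plate 2 also lay under the floor of adult plate 1 there. Against the floor of adult plate 1 alone the bounds were 1.99-fold for Capn6 and 2.97 to 6.23-fold for the other 5. Capn6 lost its call in 6 of 18 alternatives, leaving out P4 plate 1, P7 plate 1 or adult plate 2 among them (edgeR adjusted p up to 0.280). All 6 were also at 0 in the astrocyte-led wells of both adult plates, where the floors allow bounds of 2.26 to 7.24-fold. Celsr1, a planar polarity cadherin, stood at 87.4 to 123 CPM on the early plates and at 0 and 1.68 CPM in the adult.

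About as many transcripts of mature astrocytes rose as did not pass. Of the 25 astrocyte genes, all were tested, 12 rose and none fell, against 4.28% higher over all genes. Their median log2 difference was 1.63 against 0.03 over all genes. Of the 19 that passed the filter on 2 early plates, 7 rose, against 87 of all 4047 genes that passed it there (2.15%). Slc1a2, the main glutamate transporter of mature astrocytes, stood at 241, 282, 328 and 390 CPM on the early plates and at 1498 and 768 CPM on the adult plates, a log2 difference of 2.04 ± 0.42 (edgeR adjusted p = 0.0102). Gpr37l1, an orphan receptor of glia, stood at 47.0, 67.5, 270 and 126 CPM and then at 1302 and 554 CPM. Gjb6, the gap junction protein connexin 30, was absent from 3 early plates, stood at 14.6 CPM on P7 plate 1, and reached 150 and 127 CPM in the adult. Others that rose were Clu, Ntsr2, Acsbg1, F3, Slc7a10, Cldn10, Htra1 and S100b, with log2 differences from 1.90 (Clu) to 4.62 (F3, tissue factor). Without adult plate 1, 6 of the 12 were called, with Clu, Ntsr2, Acsbg1, Slc7a10, Cldn10 and S100b lost, and each of the 12 lost its call when the adult was set against P7 alone. Slc7a10 lost its call in 9 of 20 alternatives (2 other scalings, DESeq2 and leaving out P4 plate 2 or P7 plate 1 among them), S100b in 7 (edgeR adjusted p up to 0.425) and Clu in 6 (up to 0.518), leaving out P4 plate 2 among them. Slc1a3 did not pass: it stood at 746, 779, 568 and 1081 CPM and then at 1014 and 770 CPM. In the astrocyte-led wells, which this list chose, 18 of the 25 were called higher and the median was 1.93.

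Among the largest rises called in both sets of wells were a secreted and a surface protein. Agt, angiotensinogen (chromosome 8, 124556534 to 124569706, GRCm38), was at 0 on both P4 plates, at 14.6 and 37.7 CPM at P7 and at 703 and 322 CPM in the adult. The log2 difference was 7.15 ± 0.76 (edgeR adjusted p = 0.000455), and in the astrocyte-led wells the adult plates reached 1124 and 1049 CPM. Agt did not pass the filter on 2 early plates and entered the fit through the adult plates, where it was high. Gpc5, a heparan sulfate proteoglycan of the cell surface (chromosome 14, 115092215 to 116525179, GRCm38), stood at 11.7, 0, 160 and 126 CPM and then at 2202 and 978 CPM. Its log2 difference was 5.84 ± 0.58 (edgeR adjusted p = 0.000233), and 3 genes on the other strand overlap it, so its reads are uncertain if counting ignored strand. Gpc5 reached 2820 and 2641 CPM in the astrocyte-led wells of the adult plates. Nearly all of its counts were unspliced: 3 of 191 and 15 of 583 counts on the adult plates were spliced, and with spliced counts alone it was too low to be tested, whereas all 61 and 192 adult counts of Agt were spliced. Lncpint, a long noncoding RNA that overlaps other transcripts, was also among the 10 largest rises, from 0 to 29.1 CPM early to 242 and 158 CPM in the adult, a call lost against P7 alone, where Agt and Gpc5 kept theirs. Only 0 of 21 and 4 of 94 adult counts of Lncpint were spliced, and it too was not tested with spliced counts alone.

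In the lists for astrocyte functions few genes rose. Over all genes tested 4.28% were higher, and the 2 rises each among glutamate and GABA genes, glycolysis genes and glial transcription factors exceed that share by fewer than 2 genes a list. Of 17 genes for glutamate and GABA handling, 15 were tested and 2 rose, Slc1a2 and Grm5, with a median of 1.30, and 5 rose without P7 plate 2 and 6 without adult plate 2. Grm5, a metabotropic glutamate receptor, stood at 450 and 337 CPM in all marker-positive adult wells but at 36.9 and 72.1 CPM in the astrocyte-led ones, where it was too low to be tested. Slc1a2 and Grm5 lost their calls against P7 alone, and Grm5 against P4 alone. Among astrocyte-led wells, where 5.95% of all genes tested were higher, 8 of 14 tested genes of that list were called higher. Of the 8, 7, such as the GABA transporter Slc6a11, lay outside the 25 genes that chose those wells. Of 14 genes for potassium, water and gap junctions, 12 were tested and 4 rose, among them Kcnk1, a potassium channel, and Car2, a carbonic anhydrase (log2 differences of 3.01 and 2.70). Without adult plate 1, 2 of the list were called, Kcnk1 and Car2 not among them, and each of the 4 lost its call against P7 alone, Car2 also against P4 alone; 1 of the 4 passed the filter on 2 early plates. Among astrocyte-led wells 7 of 12 were called higher, 5 of which, Gja1 and Slc4a4 included, are among the 25 genes that chose those wells; Kcnk1 and Car2 are not. Kcnj10, the main inward rectifier of astrocytes, did not pass (0.06, edgeR adjusted p = 0.97).

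Of 25 lipid genes, 19 were tested: the acyl-CoA synthetases Acsl3, Acsl6 and Acsbg1 rose, Hmgcs1, an early enzyme of cholesterol synthesis, fell, and the median was 0.01. Over all genes 4.28% were higher and 1.98% lower, and the single fall is within 1 gene of that share. The same 4 genes were called among astrocyte-led wells, of 21 tested, Acsbg1 being one of the 25 that chose them, and without adult plate 1 the call of Acsbg1 was lost. Acsl3 stood at 41.1, 36.8, 65.6 and 50.3 CPM and then at 1176 and 349 CPM, a log2 difference of 4.11 (edgeR adjusted p = 0.00111), and 5.14 in the astrocyte-led wells. Acsl3 did not pass the filter on 2 early plates and entered the fit through the adult plates, where it was high. Against P7 alone Acsl3 was the one of these 4 genes that kept its call, and Hmgcs1 and Acsbg1 lost theirs against P4 alone as well. Hmgcs1 stood at 587, 583, 474 and 641 CPM and then at 115 and 181 CPM, and lost its call in 8 of 20 alternatives, among them leaving out either P4 plate or adult plate 1. Of 24 genes for matrix and synapse-acting proteins, 16 were tested: Sparcl1, Gpc5, Bcan and Mertk rose, and Ptn and its homologue Mdk fell. Against P7 alone Gpc5, Ptn and Mdk kept their calls and Sparcl1, Bcan and Mertk did not. Mertk did not pass the filter on 2 early plates. On the adult plates 5 of 15 and 16 of 53 of its counts were spliced, and with spliced counts alone it was not tested. Mertk lost its call in 10 of 18 alternatives (2 other scalings, DESeq2 and leaving out P4 plate 2, P7 plate 1 or adult plate 1 among them), and Sparcl1 in 5 of 20 (leaving out P4 plate 1 or adult plate 1 among them). Mdk did not pass in the astrocyte-led wells (edgeR adjusted p = 0.0546), where Cst3 rose as well and 15 genes were tested. Of 17 genes for glycolysis and energy stores, 14 were tested and 2 rose, Aldoa and Pygm. Pygm, a glycogen phosphorylase, stood at 0 to 14.6 CPM early and at 115 and 117 CPM in the adult, a call lost without adult plate 2 and against P7 or P4 alone, and Aldoa lost its call in 8 of 20 alternatives, among them leaving out either P4 plate or P7 plate 1 and the adult against P7 alone. Pygm did not pass the filter on 2 early plates and entered the fit through the adult plates. Among astrocyte-led wells Ldha fell, and Aldoc, one of the 25 genes that chose those wells, was called higher.

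Of 23 transcription factors of glia, 15 were tested, Rorb and Sox10 rose, none fell, and the median was -0.79. Sox10 did not pass the filter on 2 early plates and entered the fit through the adult plates. Among astrocyte-led wells Rorb and Sox10 rose, and Zic1 (-1.36, edgeR adjusted p = 0.0298) and Prox1 (-3.02, edgeR adjusted p = 0.0451) fell. Over all marker-positive wells Prox1 had 2 counts on P7 plate 2 and 2 on adult plate 1, under the floor of 3 counts. The astrocyte-led fit was not repeated with plates left out. Rorb, a nuclear receptor, stood at 88.1, 166, 72.9 and 88.0 CPM and then at 507 and 203 CPM. On the adult plates 9 of 44 and 31 of 121 of its counts were spliced, and with spliced counts alone it was not tested. It lost its call in 9 of 19 alternatives, among them leaving out P4 plate 1, P7 plate 1 or adult plate 1 and the adult against P7 or P4 alone, where Sox10 kept its call. Sox9, a defining factor of astrocytes, stood at 834, 1111, 1319 and 955 CPM and then at 473 and 418 CPM, and did not pass the test (-1.10, edgeR adjusted p = 0.155). Zbtb20, Nfia, Nfib and Nfix, which promote astrocyte differentiation, did not pass either, with log2 differences of -0.50 to -1.56. Of 6 tested genes among 16 for metallothioneins and reactive astrocytes, only Vim changed among all marker-positive wells, a call lost against P7 alone, and among astrocyte-led wells Mt1 and Mt2 rose, Vim fell, and Mt3, one of the 25 genes that chose those wells, was called higher. Mt1, a metallothionein, stood at 153, 153, 539 and 628 CPM and then at 1072 and 461 CPM, with an edgeR adjusted p of 0.0608. In the astrocyte-led wells it stood at 185, 146, 647 and 452 CPM and then at 1603 and 1104 CPM (log2 difference 2.32, edgeR adjusted p = 0.00041). Of 17 genes for purinergic, adrenergic and peptide signalling, 3 were tested, 1 of which, Ednrb, is a rule marker and is not counted. The other 2, Agt and Ntsr2, rose, against 4.28% higher over all genes, but Agt did not pass the filter on 2 early plates. The call of Ntsr2 was lost without adult plate 1 and against P7 alone.

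**Figure D3:**
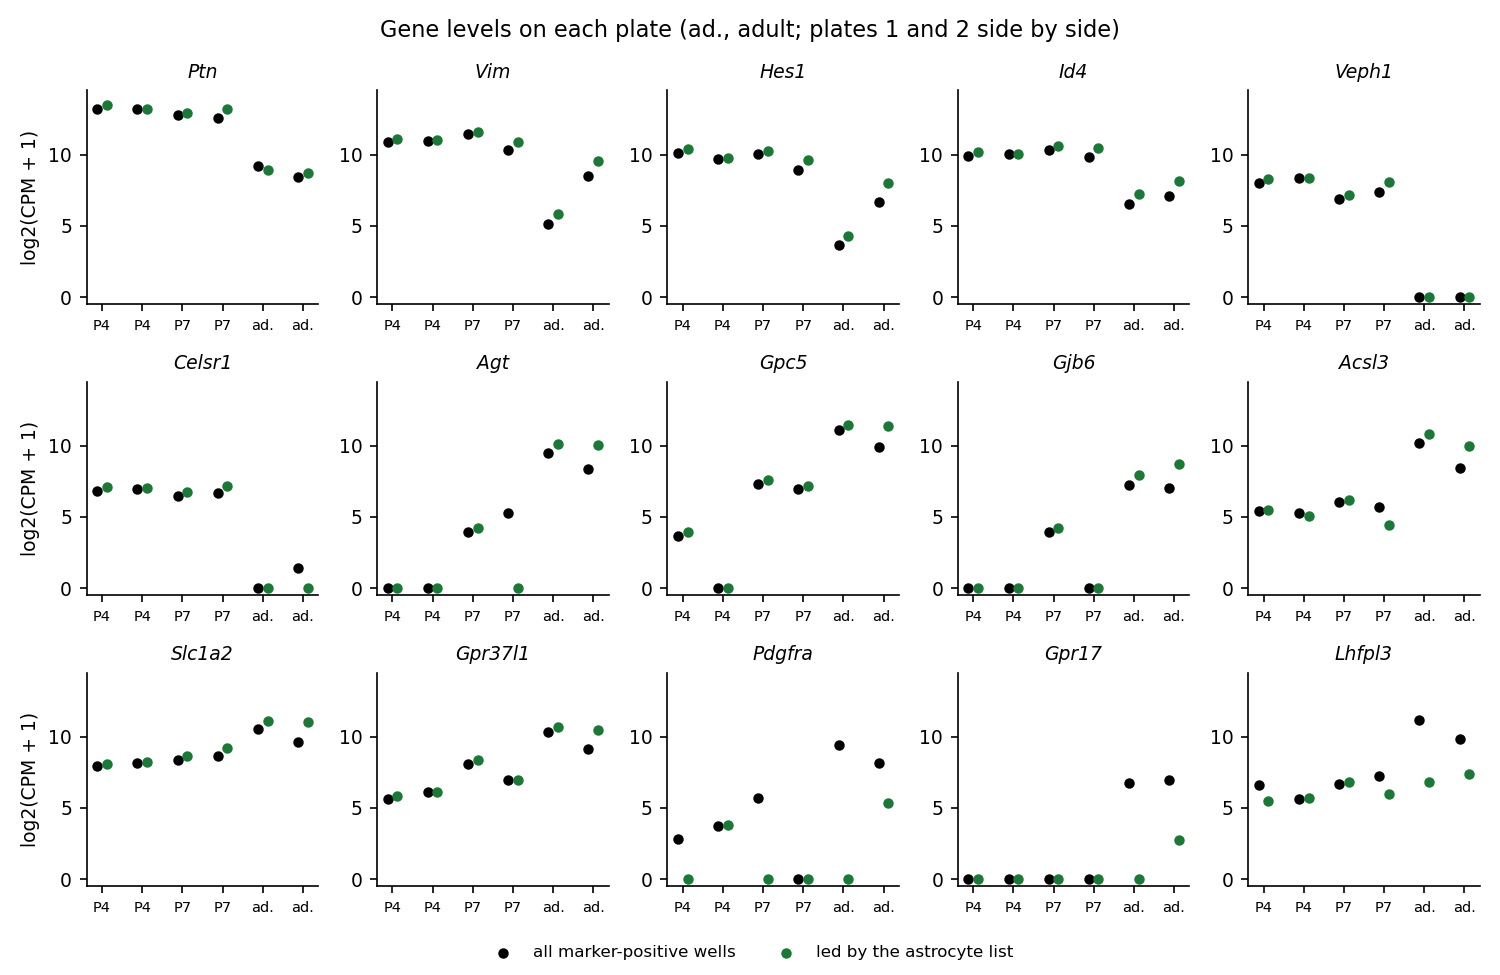
Level of 15 genes, log2(CPM + 1), on each of the 6 plates in all marker-positive wells (black) and in the astrocyte-led wells (green). Ptn, Vim, Hes1, Id4, Veph1 and Celsr1 were lower on both adult plates in both sets, Agt to Gpr37l1 were higher, and Pdgfra, Gpr17 and Lhfpl3 were high in the adult among all marker-positive wells but not among the astrocyte-led wells.

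Some transcripts of other cell types were also higher in the adult. Of 12 OPC markers, 8 were tested and 6 were called higher (Pdgfra, Cspg4, Sox10, Gpr17, C1ql1 and Lhfpl3), against 4.28% over all genes. Of these, 5 did not pass the filter on 2 early plates, so the count is partly fixed by the filter and is a description. Of the 3 OPC markers that passed it on 2 early plates 1 was called higher, against 87 of all 4047 such genes. Without adult plate 2 the call of C1ql1 was lost, and against P7 alone Pdgfra, Sox10 and Lhfpl3 kept their calls. On adult plate 1 a single OPC-led well stood beside the 4 astrocyte-led wells, which supplied 62.5% of the plate's summed counts (mitochondrial rows included), so the values of that plate for Pdgfra, Gpr17 and C1ql1, all at 0 in the 4 wells, come from 1 well. Without adult plate 1 all 6 genes kept their calls. Pdgfra, the growth factor receptor of OPCs, stood at 5.87, 12.3, 51.0 and 0 CPM on the early plates and at 692 and 280 CPM on the adult plates, but at 0 and 38.8 CPM in the astrocyte-led adult wells. Lhfpl3 stood at 2294 and 891 CPM in the adult, a log2 difference of 4.23 (edgeR adjusted p = 0.000456), against 1.28 (edgeR adjusted p = 0.156) in the astrocyte-led wells. Gpr17, a receptor of committed precursors, was absent from the early plates and stood at 104 and 124 CPM in the adult, and at 0 and 5.55 CPM in the astrocyte-led wells. Sox10, the lineage factor of oligodendrocytes, stayed high in the astrocyte-led wells, at 240 and 99.9 CPM.

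Of 12 oligodendrocyte markers, 5 were tested and 3 rose, against 4.28% over all genes. Mbp and Mag were among the 3, and both lost the call without adult plate 1, when 1 of the list was called, against 5 without adult plate 2. Both also lost it against P7 alone, and none of the 3 passed the filter on 2 early plates. The list summed to 2086 and 1037 CPM on the adult plates, against 12748 and 2863 CPM in the other wells of those plates, and the part of RNA from those cells was not tested. Of 12 neuron markers, 10 were tested and Snap25 and Gng8 rose, which exceeds the 4.28% over all genes by fewer than 2 genes, and 4 rose without P7 plate 2 and 5 without adult plate 1. Snap25 lost its call in 6 of 20 alternatives, leaving out P4 plate 2 or adult plate 2 among them (edgeR adjusted p up to 0.378), and Gng8 in 4 of 20, dropping the neuron-led wells among them (up to 0.291), and both lost it against P7 alone. Snap25, a synaptic vesicle fusion protein, stood at 231 and 611 CPM in the adult, against 184 and 122 CPM in the astrocyte-led wells, where none of 6 tested neuron markers passed. The microglia and endothelial lists had no gene high enough to be tested, and their summed levels were at most 43.7 and 147 CPM in the marker-positive wells of any plate.

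**Figure D4:**
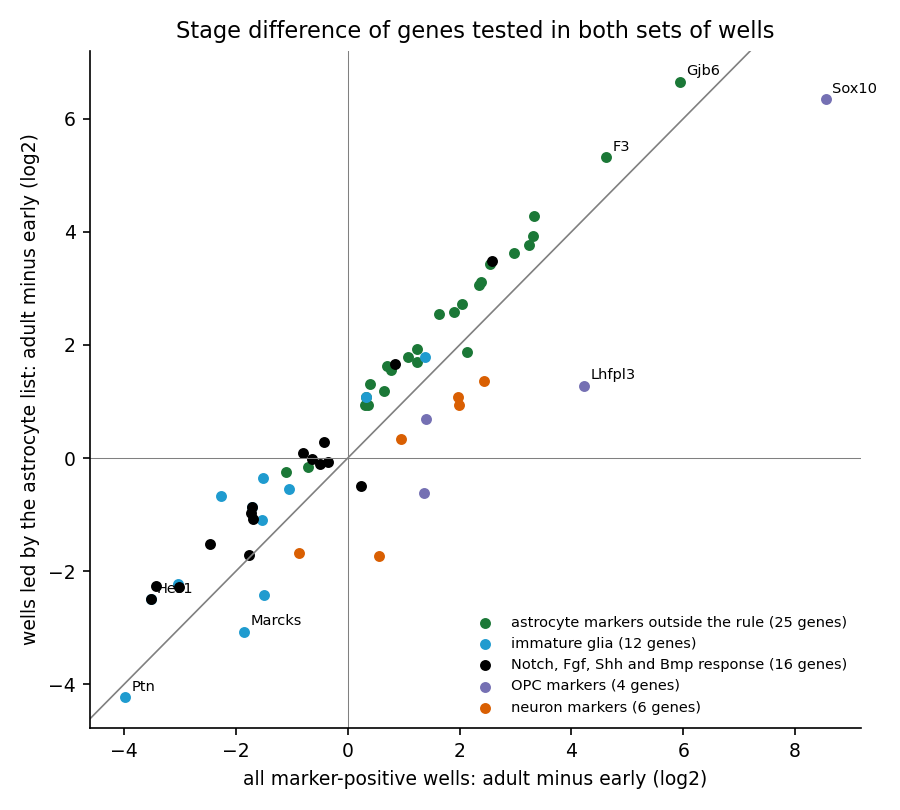
Log2 difference of adult minus early plates for genes of 5 lists tested in both sets of wells, in all marker-positive wells (x) and in the astrocyte-led wells (y); the grey diagonal marks equal differences. Most astrocyte genes (green) lie above the diagonal, Ptn lies near it at -3.98 and -4.23, and Lhfpl3 (OPC list) lies below it at 4.23 and 1.28.

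Transcripts induced by tissue dissociation also differed between stages. The 14 genes listed summed to between 6836 and 11154 CPM in the marker-positive wells at P4 and P7, and to 3285 and 3836 CPM in the adult, against 1072 to 1649 CPM and 2850 and 3485 CPM in the other wells. Of these genes, all were tested and Egr1, Ier2 and Dusp1, immediate early genes, fell, against 1.98% lower over all genes. Among astrocyte-led wells 5 fell, Fos and Dnajb1 besides these 3, against 3% lower over all genes. The filter was not passed on both adult plates by 7 of the 14 genes, Ier2 and Dusp1 among them, so the count of 3 is partly fixed by the filter. Among all marker-positive wells 5 fell without P7 plate 2 and 8 without adult plate 2. Egr1 lost its call without P4 plate 2 or P7 plate 1, and all 3 lost theirs against P7 alone, Dusp1 also against P4 alone. On adult plate 1 the single OPC-led well held 8061 CPM of the 14 genes. In the astrocyte-led wells of adult plate 1 the sum was 442 CPM, against 4684 CPM on adult plate 2. On adult plate 2 the 7 wells with at least 3 ependymal genes supplied 93.1% of those counts, with sums of 1174 to 25689 CPM, and the other 23 lay between 0 and 1504 CPM. Hes1, Id1 and Vim were lower on adult plate 1 than on adult plate 2 as well. The part of dissociation in the falls of Hes1 and the Id genes was not tested.

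Set against the other wells of the same plates, the change with stage differed for 555 of 11705 genes (4.74% called), 229 with a more positive and 326 with a more negative change in marker-positive wells, by edgeR's test of the interaction of stage with membership. By DESeq2 the split was 106 and 324, and without adult plate 1 it was 483 and 206. The 6 rule markers, which define membership, are among the 326, and without them 549 genes were called, 320 of them more negative. For Ptn the interaction was -5.58 (edgeR adjusted p = 6.02e-17), larger in size than its fall of 3.98 on the log2 scale, and its level in the other wells went up, from between 36.2 and 125 CPM early to 205 and 151 CPM in the adult. The interactions of Hes1 (-5.64), Vim (-3.97), Id1 (-6.04), Id3 (-4.38) and Id4 (-4.07) were also larger in size than their falls, and the call of Id3 was lost without adult plate 2. In the other wells these 5 genes were higher on adult plate 2 than on any early plate, as Hes1 at 35.9 CPM against 4.40 to 8.53 CPM, whereas on adult plate 1 Hes1, Vim, Id3 and Id4 lay within the early range and Id1, at 4.47 CPM against 2.10 to 4.10 CPM, just above it. The change in the other wells was not tested on its own. Gpc5 rose more (5.11, edgeR adjusted p = 4.14e-12), a call lost with spliced counts alone (edgeR adjusted p = 0.366), and it stood at 45.8 to 111 CPM in the other wells of all plates. Acsl3 also rose more (3.20, edgeR adjusted p = 3.07e-06). For Slc1a2 the interaction was -0.02, and its level in the other wells went from between 7.55 and 25.5 CPM early to 71.5 and 53.2 CPM in the adult. The count of genes was 185 without P4 plate 2, 275 without P7 plate 1 and 345 in the astrocyte-led wells.

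Of the 25 astrocyte genes, 10 had a more negative interaction and none a more positive one, against 326 and 229 of the 11705 genes tested. Their median was -1.41 against 0.10 over all genes, although 12 of the same genes had risen within the marker-positive wells. The 10 became 5 without P4 plate 2, 6 without P7 plate 1, P7 plate 2 or adult plate 2, and 1 after wells with 3 markers of another nonneuronal type were dropped, which leaves 1 adult plate. In the astrocyte-led wells, which this list chose, 6 had a more negative and 1, F3, a more positive interaction, with a median of -0.67. Over all 10444 genes tested there, 206 were more negative and 139 more positive. Their sum in the other wells was 383 to 684 CPM at P4 and P7 and 2520 and 1836 CPM in the adult, and the comparison wells thus also held more astrocyte transcripts in the adult, the 14 astrocyte-led wells among them supplying 9.59% and 12.4% of those counts on the 2 adult plates. Aldoc, a glycolytic enzyme of astrocytes, stood at 442 to 641 CPM early and at 1406 and 879 CPM in the adult marker-positive wells, with an interaction of -3.95 (edgeR adjusted p = 7.54e-11), while its level in the other wells went from between 4.09 and 6.69 CPM early to 226 and 164 CPM. Of the 14 dissociation genes, 11 had a more negative interaction, against 326 of the 11705 genes tested. This became 7 without P4 plate 2, where 133 of 13095 genes were more negative, and 7 without P7 plate 1, where 173 of 13062 were.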

How the data were processed

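Single cells were measured in plates with Cel-seq2, in which each transcript carries a 6-base molecular identifier (UMI), per the labels' protocols. STAR 2.5.3a and the mm10 build are named in the submitters' processing notes, whose roles and order are not given. The authors deposited expected counts per gene and well, without scaling: UMI numbers corrected for collisions among 4096 UMIs, as found from the values, where inverting the correction gave whole numbers (within 1e-06) for 100% of them. Whether counting used strand is not given. A count test had been planned. Because the table holds expected counts, deposited values were summed over the chosen wells of each plate and rounded.

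The marker-positive wells, gene lists and rule for named genes (the rule markers, up to 10 called genes per direction without overlap between plates, called and 3 most abundant genes of each list, and 20 genes with the largest ratio to other wells) were chosen with earlier results of these data known. edgeR 4.0.16 (filterByExpr, TMM, quasi-likelihood, Benjamini-Hochberg adjustment at 0.05, R 4.3.3) was fitted on 6 plate sums, and on 12 with plate as a block for the interaction. Of 37994 IDs, 37938 matched GENCODE M21 (GRCm38). Intervals are exact, at 95%. The test script was checked on simulated data. No doublet caller was run. All 384 well barcodes recur on every plate, as the plate design gives, and no 2 kept wells held identical values. Alternatives included other scalings, DESeq2 1.42.0, no filter, recovered UMIs, spliced counts, other memberships, a replicate block and each plate left out. Some genes of the lists are counted but not reported here by name.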

Additional observations from a re-analysis of the deposited data

Results flagged for a closer look

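Of the 555 genes whose change from P4 and P7 to the adult differed between marker-positive and other wells by the interaction test, the 10 with the largest values in each direction are given, among those whose log2 ratio of marker-positive to other wells did not overlap between early and adult plates, leaving out mitochondrial genes, Xist, Y-linked genes and gene models without a proper symbol. Fitted values for genes absent from a group depend on the prior count and are no bounds. More positive in marker-positive wells were Gad1 (10.36 on the log2 scale), Gpr17 (10.19), Sema3d (9.13), Rph3a (9.01), Mmp17 (8.89), Rxfp2 (8.82), Trpc7 (8.79), Itga9 (8.43), Cntn6 (7.23) and Fgf11 (6.95). Gad1, an enzyme of GABA synthesis, was absent from the early marker-positive wells and stood at 34.6 and 41.9 CPM in the adult ones, but at 0 and 11.1 CPM in the astrocyte-led wells. Itga9 and Mmp17 were at 0 in the astrocyte-led wells of both adult plates. Rxfp2 and Trpc7 had 0 counts in the marker-positive wells of adult plate 1 and 49 and 19 counts on adult plate 2. Their adult level thus rests on 1 plate.

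More negative were Veph1 (-13.11), Nid1 (-12.23), Ephb4 (-11.83), Esm1 (-11.17), Col2a1 (-10.29), Capn6 (-10.07), Scube2 (-9.53), Serpinb1a (-7.82), Prr5l (-7.77) and Efhd1 (-7.01). For Efhd1 both sides moved: the marker-positive wells went from between 85.9 and 229 CPM early to 69.2 and 45.3 CPM in the adult, and the other wells from between 0.131 and 1.05 CPM to 93.8 and 20.1 CPM. For Prr5l the marker-positive wells stayed between 0 and 49.1 CPM while the other wells went from at most 0.892 CPM to 158 and 45.3 CPM.

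Many of these calls depended on the setting. Among 17 or 18 alternatives, the call was lost or the sign turned in 14 for Trpc7, in 13 for Ephb4 and Mmp17, in 12 for Rph3a, in 11 for Rxfp2, Esm1 and Scube2, in 8 for Sema3d, in 7 for Fgf11 and Capn6, in 4 for Gad1 and Cntn6, in 3 for Gpr17, in 2 for Itga9, Veph1, Col2a1 and Prr5l, and in 1 for Nid1, Serpinb1a and Efhd1. Ephb4 and Rph3a lost their calls with each of the 6 plates left out in turn.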

How the results depend on the processing

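Counts of changed genes moved by over 1.5 times under some choices, and the cause was not tested except that some fits held fewer wells or plates. With a plate left out the filter was set anew on the remaining plates. The stage fits then tested 5976 to 6859 genes, against 4859, and the interaction 11926 to 16472, against 11705. From P4 to P7, against 0 genes, DESeq2 gave 1, no filter 33, dropping wells with 3 markers of another nonneuronal type 7, and leaving out each plate 4 to 33. From early to adult, against 304, no filter gave 513, dropping those wells 157 (1 adult plate left), dropping neuron-led wells 516, dropping wells above 3 times the plate median 145, the adult against P7 alone 53, and leaving out each plate 271 to 541. For the interaction, against 555, spliced counts gave 350, dropping wells with 3 markers of another nonneuronal type 60, the astrocyte-led wells (added after seeing the data) 345, the adult against P7 alone 257, and leaving out each plate 185 to 689. DESeq2 split the interaction as 106 more positive and 324 more negative, against 229 and 326, and without neuron-led wells it was 333 and 278. Library size alone moved the median of all genes from 0.03 to -0.10 for early to adult, a shift of all genes against which the differences are to be read.

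With the replicate block, pairing plates by number, 0 and 238 genes were called. Over 8852 genes, plates with the same number did not deviate together (correlations of -0.07, -0.04 and 0.02). Xist, however, stood at 693 and 415 CPM on plates 1 of P4 and P7 and at 67.5 and 62.8 CPM on plates 2. Whether plates with the same number share a batch was not tested further.

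Mean shares of 3.94% (P4), 3.22% (P7) and 12.1% (adult) became 3.43%, 2.40% and 6.04% with at least 4 markers, 7.37%, 5.98% and 25.4% with at least 2, 3.23%, 2.10% and 5.02% after thinning, and 3.43%, 2.55% and 6.64% with 3 of Aqp4, Mlc1, Aldh1l1 and Ednrb. With stricter depth the P7 share was 2.94%. Single plates gave 3.83% to 4.04%, 3.06% to 3.37% and 8.93% to 15.2%.

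Rule markers aside, of 70 called genes followed from early to adult 69 kept their direction in every alternative that tested them and 13 their call, Ptn, Hes1, Id1, Id4, Agt and Acsl3 among them, and Gpc5, which was too low to be tested with spliced counts. Agt and Acsl3 did not pass the filter on 2 early plates, nor Hes1 and Id1 on both adult plates. For the interaction 82 of 91 kept their direction and 16 their call. Without wells holding 3 markers of another nonneuronal type the sign turned for Grm5 (-1.08, early to adult) and, in the interaction, for Gpr17 (-1.82), Itga9 (-1.16), Sema3d (-1.74), Rph3a (-1.05), Mmp17 (-0.45), Rxfp2 (-1.80), Hhip (-8.30) and Tubb3 (-7.36). It also turned for Itga9 (-4.29) and Mmp17 (-0.44) in the astrocyte-led wells, and for Vtn without P4 plate 2 (-5.92 to 0.85 over the plates left out). Small sums on P7 plate 2 and adult plate 1 limit the detection of low genes.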

Other observations

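On the earlier plates of the series the same rule took in 2 of 309 and 1 of 345 kept wells at E11, 3 of 291 at E12, 1 of 153 and 5 of 137 (3.65%) at E13, and 1 of 188 and 1 of 302 at E15. At E18 the rule took in 90 of 267 kept wells on plate 1 (33.7%) and 0 of 110 on plate 2. Fabp7 and Tnc also mark radial glia and progenitors, and these wells were not analysed further here.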
